A study of Mus musculus with 26 samples.

Results

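Retinal progenitor transcription factors are the DNA-binding proteins that keep dividing cells of the developing retina in an uncommitted state. The genes described here are Rax, Sox2, Sox9, Pax6, Lhx2, Six3, Six6 and Nr2e1, 8 of the 18193 genes measured, chosen by name as factors that retinal progenitors are known to use. The platform annotation gave 17 probe sets to these genes alone, and the brightest probe set of each gene carries its values, leaving 9 for comparison. The samples were 26 single cells from mouse retinas, all homozygous for floxed Notch1 on a C57BL/6 background, each on its own Affymetrix mouse expression array. The 13 N1-CKO cells came from retinas electroporated in vivo at postnatal day 0 with Cre recombinase under the broadly active CAG promoter and with a GFP reporter (CALNL-GFP) that Cre switches on. The 13 WT cells received GFP under the same promoter and no Cre, so they carried the floxed allele as well. Retinas were taken at postnatal day 3 and dissociated, and cells with green fluorescence were picked by hand.

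Notch1 is a receptor that holds retinal progenitors back from differentiation, and its signal reaches DNA through RBPJ. In the mouse, several of the factors outlast the progenitor state in particular cell types: Pax6 and Six3 in amacrine cells, Sox2, Sox9 and Lhx2 in Müller glia, and Rax in developing photoreceptors. A cell that has lost one of them may therefore still hold others. Otx2 and Crx are transcription factors of photoreceptor precursors, and Tfap2a is one of amacrine and horizontal cells. The questions asked of the data were which of the factors a single cell held, in which combinations, and which were found in cells that also held neuronal or photoreceptor genes.

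Detection was judged within each array: a factor counted as present in a cell if it was among the 4504 probe sets at or above the array's 90th percentile. That threshold ran from 245 to 2164 in N1-CKO cells and from 396 to 2409 in WT cells, so the same signal could be called differently. Rax, for example, counted as present at 713 in N1-CKO cell 9 and as absent at 1796 in WT cell 1. All means are of log2 MAS5 signal, with signals under 25.02 raised to that value, and each difference is the N1-CKO mean minus the WT mean. Such a difference mixes the number of cells in which a transcript was found with its level there. Since nothing in the labels ties a cell to an animal, a litter or a day of picking, each group stands as 1 sample, no test was made, and SDs describe the spread between cells. Notch1 itself was detected in 8 N1-CKO cells and in 10 WT cells, with signals of 15.9 to 39239 (median 5462) in N1-CKO cells and 1.09 to 23914 (median 10102) in WT cells. Because signal comes from near the 3′ end of a transcript, which Cre need not remove, this does not check the deletion. Control probe sets for 18S ribosomal RNA divided the arrays into a high set of 5 N1-CKO and 5 WT cells and a low set of 8 N1-CKO and 8 WT cells. Detection thresholds were mostly lower in the high set. The ratio of 3′ to 5′ signal of Gapdh, a sign of RNA and amplification quality, had a median of 2.67 (1.46 to 245.4) in N1-CKO cells and 1.79 (1.40 to 3.263) in WT cells. Of 11 measured markers of endothelial, microglial, astrocytic, pigmented and other cells, Gfap was detected in 1 WT cell, Mitf in 1 N1-CKO cell and the others in none.

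Lhx2, a LIM homeodomain factor needed early in eye formation and later kept in progenitors and Müller glia, differed most between the groups. It was detected in 5 of 13 N1-CKO cells (38.46%, exact 95% interval 13.86 to 68.42%) and in 12 of 13 WT cells (92.31%, 63.97 to 99.81%). Its signal ran from 0.523 to 17905 with a median of 293 in N1-CKO cells, and from 3.4 to 41088 with a median of 11216 in WT cells. Nearly every WT cell was high, whereas the N1-CKO cells were spread over the whole range, so that the groups overlapped. The mean log2 signal was 9.06 ± 4.04 in N1-CKO cells and 12.94 ± 2.66 in WT cells (SD, n = 13 each), a difference of -3.88. Of the 8280 genes detected in at least 2 cells, 0.386% had a difference as low or lower. Among the cells in which it was detected, the mean log2 signal was 13.47 ± 0.76 in the 5 N1-CKO cells and 13.63 ± 0.97 in the 12 WT cells. These means differ by -0.16, but they leave out the cells in which Lhx2 was dim, such as N1-CKO cells 2 (1780) and 13 (293), so they do not separate the number of cells from the level. The 5 N1-CKO cells with Lhx2 were cells 1, 3, 4, 9 and 11, with signals of 8121, 13799, 5323, 17905 and 17384. The only WT cell without it was cell 7, at 3.4. N1-CKO cell 2 lay just under its array's threshold, at 1780 against 2112.

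The Lhx2 difference was -3.58 on the high 18S arrays and -4.06 on the low ones, where all genes had median shifts of 0.18 and -0.15. Lhx2 signal and the Gapdh ratio moved in opposite directions over the 26 cells (Spearman rho = -0.64, a description). Restricted to cells whose Gapdh ratio did not exceed 3, Lhx2 was detected in 4 of 8 N1-CKO cells and in 11 of 11 WT cells, and the difference was -3.35. Leaving out 1 cell at a time gave differences of -4.57 to -3.51.

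The promoter sequences of Lhx2 are shown because it had the largest difference, and that of Six6 because it was found in more N1-CKO cells than any other factor. They are the 250 bases before each start site of a RefSeq transcript in GRCm38.p6, all on the plus strand. Capitals mark TGGGAA, the core of the sites RBPJ binds, which was searched on both strands without counting overlaps with other motifs.
Lhx2, chr2:38339031-38339280: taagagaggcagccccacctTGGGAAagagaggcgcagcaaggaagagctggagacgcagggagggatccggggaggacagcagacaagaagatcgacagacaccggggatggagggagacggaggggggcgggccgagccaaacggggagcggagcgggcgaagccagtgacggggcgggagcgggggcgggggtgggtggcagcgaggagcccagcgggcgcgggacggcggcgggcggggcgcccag
Lhx2, second start, chr2:38351058-38351307: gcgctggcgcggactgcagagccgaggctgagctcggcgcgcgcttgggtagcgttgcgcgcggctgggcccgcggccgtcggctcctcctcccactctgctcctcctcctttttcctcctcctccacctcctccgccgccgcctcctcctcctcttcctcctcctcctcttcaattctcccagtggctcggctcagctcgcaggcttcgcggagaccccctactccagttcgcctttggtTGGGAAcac
Six6, chr12:72939632-72939881: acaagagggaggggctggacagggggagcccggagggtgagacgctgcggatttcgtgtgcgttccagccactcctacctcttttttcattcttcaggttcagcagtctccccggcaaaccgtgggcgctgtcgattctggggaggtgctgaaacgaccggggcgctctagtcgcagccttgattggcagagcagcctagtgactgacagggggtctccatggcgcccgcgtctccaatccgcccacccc
The first Lhx2 window held the motif 230 bases before the start, and the second held it 9 bases before the start. Six6 had no match in its window. The 8 windows searched covered 6 of the factors, with none for Rax or Sox9. Of these windows 3 held the motif, the third being that of Nr2e1 (150 bases before the start, on the other strand). The windows of Sox2, Pax6 (2 starts) and Six3 held none. Of the 32851 RefSeq windows of this length that were searched, a set that left out a whole chromosome, 7094 (21.6%) held it. A match in these letters is a description, not a binding site.

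**Figure D1:**
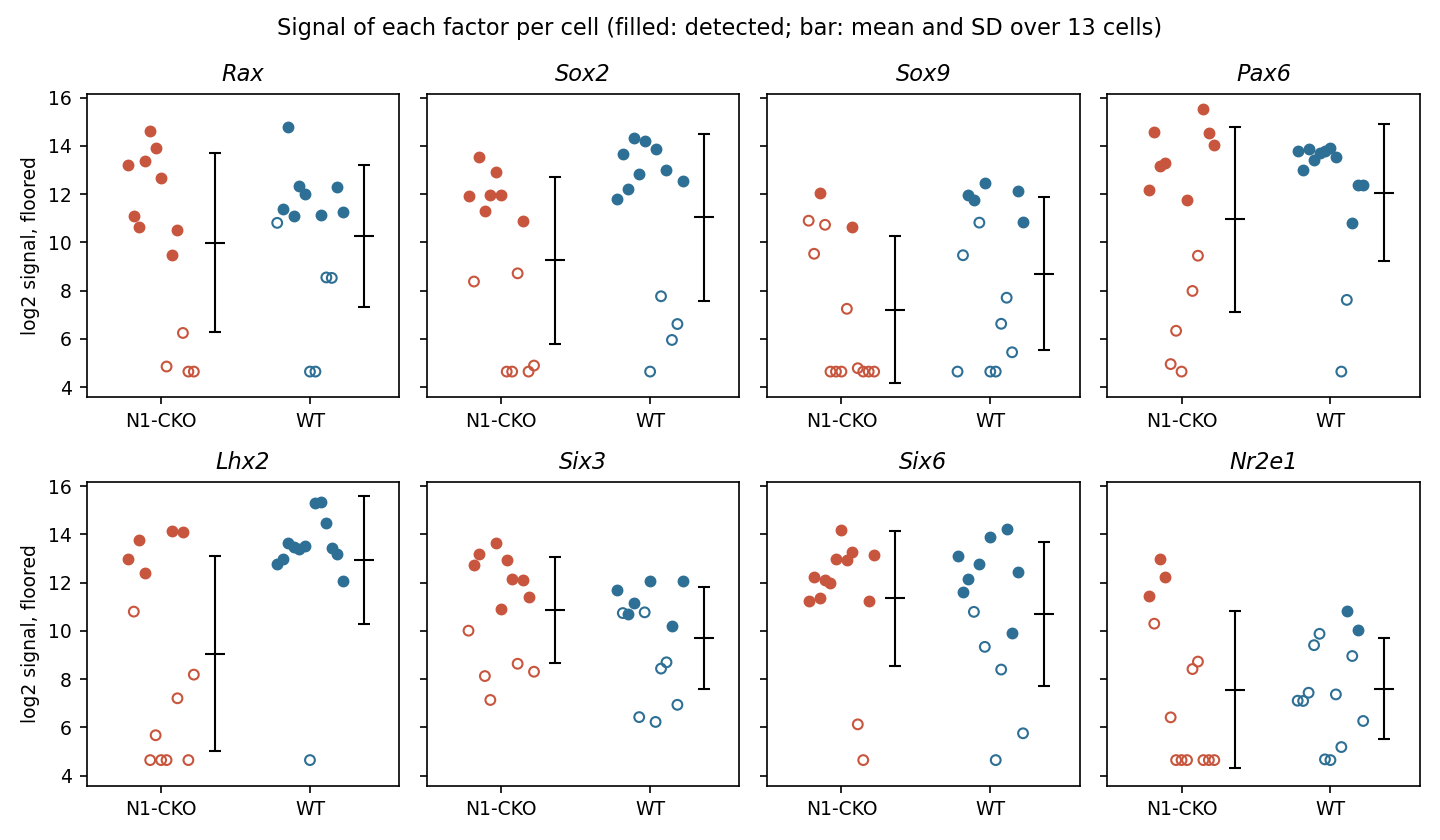
Log2 signal of each factor in each cell, with N1-CKO cells left of WT cells. Filled points are cells in which the factor was detected, open points cells in which it was not, and bars give the mean and SD over 13 cells. For Lhx2, 12 of 13 WT points are filled against 5 of 13 N1-CKO points, and the N1-CKO points spread over the whole range.

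The means of Sox2, Sox9 and Pax6 were lower in N1-CKO cells as well, with wide overlap between the groups. Sox2, an HMG-box factor that keeps neural progenitors competent, was detected in 7 N1-CKO cells and 9 WT cells. Its signals were 0.984 to 12001 (median 1887) in N1-CKO cells and 1.84 to 20378 (median 5998) in WT cells. Its mean log2 signal was 9.26 ± 3.47 in N1-CKO cells and 11.04 ± 3.46 in WT cells, a difference of -1.77 that was smaller than either SD. Among the cells in which it was detected, Sox2 had means of 12.07 ± 0.91 in N1-CKO cells and 13.16 ± 0.89 in WT cells. The 2 brightest Sox2 signals in the data were in WT cells 4 and 6 (20378 and 18680).

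Sox9, a factor of late progenitors and Müller glia, was among the least often detected. It was found in 2 N1-CKO cells, 3 and 9 (4263 and 1600), and in 5 WT cells, 3, 4, 6, 12 and 13 (1861 to 5617). All signals ran from 1.52 to 4263 (median 28) in N1-CKO cells and from 4.55 to 5617 (median 711) in WT cells. Its means were 7.21 ± 3.05 in N1-CKO cells and 8.71 ± 3.17 in WT cells, a difference of -1.49. The array threshold decided some of its calls, since undetected cells reached 1912 in the N1-CKO group and 1806 in the WT group. The difference was 0.57 on the high 18S arrays and -2.78 on the low ones. Its sign thus depended on the array set.

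Pax6, a paired-box factor that progenitors share with amacrine, horizontal and ganglion cells, was detected in 8 N1-CKO cells and 11 WT cells. Its signal was 3.44 to 46549 (median 4668) in N1-CKO cells and 17.7 to 15333 (median 10984) in WT cells. The brightest Pax6 cells of all were N1-CKO cells 11, 2, 12 and 13, at 46549, 24444, 23431 and 16973, above every WT cell. The lowest N1-CKO cells were 5, 6 and 7, at 31.1, 81.2 and 3.44. The N1-CKO group therefore held both ends of the Pax6 range, with a mean of 10.96 ± 3.84 against 12.07 ± 2.84 in WT cells (difference -1.11). On the high 18S arrays the difference was 1.77, and on the low ones -2.91. A second Pax6 probe set, detected in 5 N1-CKO and 7 WT cells, gave a difference of -0.99 and followed the first with a rho of 0.59.

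At the 90th percentile, Rax, Six3, Six6 and Nr2e1 were each found in more N1-CKO cells than WT cells. For Rax and Nr2e1 this order turned with the limit. At the 80th percentile Rax was found in 9 N1-CKO and 11 WT cells and Nr2e1 in 4 N1-CKO and 7 WT cells. At a threshold common to all arrays Rax was found in 8 N1-CKO and 9 WT cells, and Nr2e1 in 4 N1-CKO cells and 1 WT cell. At the 95th percentile Rax was found in 5 N1-CKO cells and 1 WT cell, and Nr2e1 in 1 N1-CKO and 0 WT cells. Six3 kept its order, with 12 N1-CKO and 11 WT cells at the 80th percentile and 5 N1-CKO and 0 WT cells at the 95th. For Six6 the groups were level at the 80th percentile (11 cells each) and at the 95th (5 cells each). Rax, a homeobox factor that founds the eye field, was detected in 9 N1-CKO and 8 WT cells. Its signal was 2.42 to 25240 (median 1576) in N1-CKO cells and 12.4 to 28040 (median 2257) in WT cells, and its means of 9.99 ± 3.71 in N1-CKO cells and 10.26 ± 2.95 in WT cells differed by -0.27. Leaving out 1 cell at a time moved that difference between -0.74 and 0.17, so Rax had no direction. Its levels in detected cells, 12.16 ± 1.78 in N1-CKO cells and 12.03 ± 1.22 in WT cells, were as close.

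Six6, a homeobox factor that supports progenitor division, was the factor found in most N1-CKO cells. It was detected in 11 of 13 N1-CKO cells (84.62%, exact 95% interval 54.55 to 98.08%) and in 8 of 13 WT cells (61.54%, 31.58 to 86.14%). Its signal was 6.4 to 18401 (median 4382) in N1-CKO cells and 10.5 to 18940 (median 3173) in WT cells. The mean log2 signals were 11.34 ± 2.80 in N1-CKO cells and 10.70 ± 2.99 in WT cells (difference 0.65), and the intervals on the shares overlap widely. The 2 N1-CKO cells without Six6 were cells 10 and 11.

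Six3, a close relative of Six6 that patterns the forebrain and eye, was detected in 8 N1-CKO and 6 WT cells. Its signal was 141 to 12977 (median 2746) in N1-CKO cells and 75.3 to 4265 (median 1657) in WT cells. It was the one factor with a mean higher by more than 1 in N1-CKO cells, at 10.87 ± 2.20 against 9.70 ± 2.11 in WT cells (difference 1.17), and it was brighter where detected as well (12.39 ± 0.92 in N1-CKO cells and 11.31 ± 0.76 in WT cells). N1-CKO cells 2, 3, 6, 8, 9 and 11 lay above the highest WT cell, at 4459 to 12977. The difference was 3.70 on the high 18S arrays and -0.41 on the low ones, so its sign was that of the high set.

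Nr2e1, an orphan nuclear receptor also called Tlx that keeps neural stem cells dividing, was the least often detected. It was found in N1-CKO cells 1, 3 and 4 (2793, 7959 and 4816) and in WT cells 10 and 12 (1805 and 1040). Its signals ran from 3.96 to 7959 (median 86) in N1-CKO cells and from 7.18 to 1805 (median 166) in WT cells. Its means of 7.57 ± 3.27 in N1-CKO cells and 7.61 ± 2.08 in WT cells differed by -0.04, far inside the spread.

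Set against all genes, 4 of the 8 factors (Lhx2, Sox2, Sox9 and Pax6) had means lower by at least 1 in N1-CKO cells, where 22.3% of the 8280 genes did. Only Six3 was higher by at least 1, where 19.1% of genes were. The median difference of the 8 factors was -0.69, with 6 lower and 2 higher, and the median of all 8280 genes was -0.04, with 51.5% lower. Lhx2 stood in the lowest 0.386% of genes, and Sox2, Sox9 and Pax6 in the lowest 9.43%, 13.3% and 20.1%. Apart from Lhx2, then, the factors lay among differences that many genes in these 26 cells had. The other probe sets of a gene had the opposite sign for 1 of Sox9 (0.28), 1 of Six3 (-0.09) and 1 of Nr2e1 (0.75), each detected in at most 1 cell of a group.

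**Figure D2:**
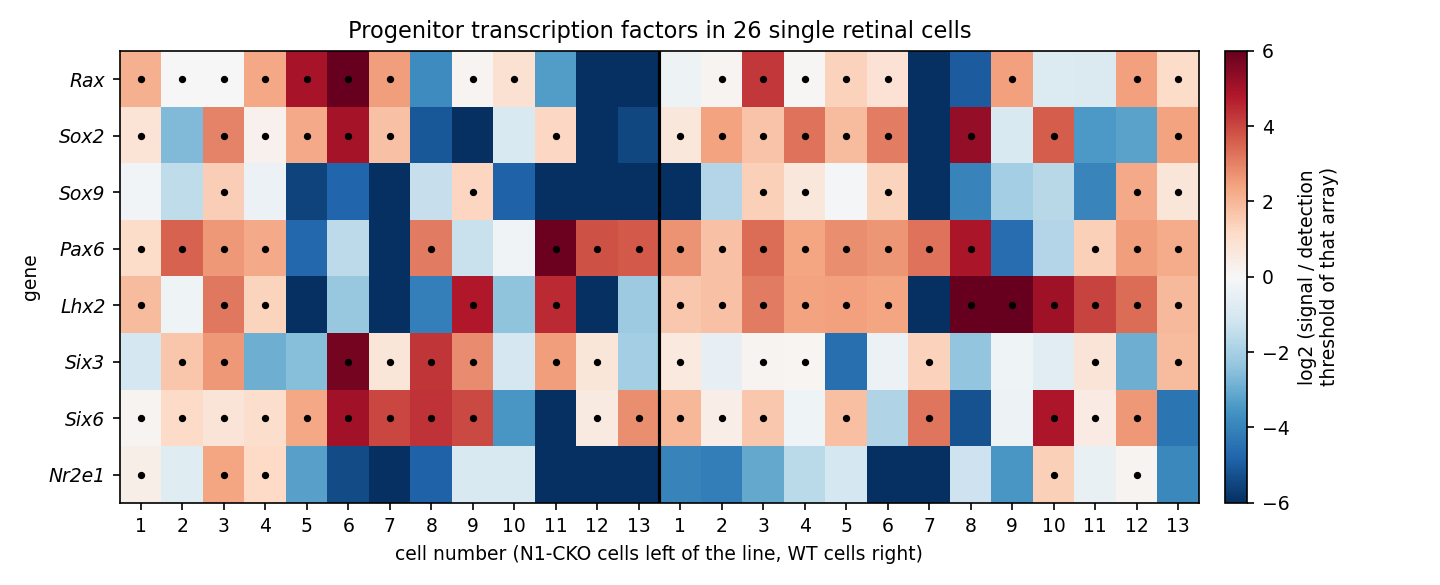
Signal of each factor (rows) in each cell (columns, N1-CKO cells 1 to 13 left of the line and WT cells 1 to 13 right), as log2 of the signal over that array's detection threshold, with dots on detected values. Lhx2 is dotted in all WT cells but cell 7, and only N1-CKO cell 3 has a dot in all 8 rows.

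Every cell held at least 1 of the factors. The median cell held 4 of the 8 in the N1-CKO group (1 to 8) and 5 in the WT group (2 to 7), and the means were 4.08 ± 1.85 factors in N1-CKO cells and 4.69 ± 1.44 in WT cells (SD, n = 13 each). Summed over cells, 53 of 104 possible detections were made in N1-CKO cells and 61 of 104 in WT cells. At least 5 factors were found in 4 N1-CKO cells and in 8 WT cells. The groups overlapped over most of this range, and the ends of it were both N1-CKO cells: cell 3 held all 8 and cell 10 held only Rax. Of the single values, 11 in N1-CKO cells and 16 in WT cells lay within 1.5-fold of the threshold, so that a cell's count can move by 1 or more with a small change of signal.

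The combinations were varied, with few shared between cells. Pax6, Six3 and Six6 alone were held by N1-CKO cells 8 and 12 and by WT cell 7, the only combination found in both groups. Rax, Sox2, Pax6, Lhx2 and Six6 were held by WT cells 2 and 5, and the same factors with Nr2e1 by N1-CKO cells 1 and 4. WT cells 4 and 13 held Rax, Sox2, Sox9, Pax6, Lhx2 and Six3. Pax6 and Lhx2 were held together by 4 N1-CKO cells and 10 WT cells, and every WT cell held at least 1 of them. Neither was detected in 4 N1-CKO cells, numbers 5, 6, 7 and 10.

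Cells 5, 6 and 7 of the N1-CKO group shared Rax with Sox2 and Six6 but without Pax6 or Lhx2, a pattern picked from the values with Six3 left aside. No WT cell had it, but no WT cell lacked both Pax6 and Lhx2. Absence from a group was also the rule, as Pax6, Six3 and Six6 alone was the only full combination found in both. Their Rax signals were 25240, 15406 and 6458, and their Sox2 signals 4000, 7803 and 3947. Pax6 was at 31.1, 81.2 and 3.44 and Lhx2 at 3.33, 51.3 and 2.27, close to or below the floor. All 3 cells also held Otx2 and Neurod1, a proneural factor, and none held the proliferation gene Mki67, but Otx2 was found in 11, Neurod1 in 13 and Mki67 in 4 of the 13 N1-CKO cells. Their Gapdh ratios were 245.4, 7.05 and 2.67, so that 2 of the 3 exceeded the limit of 3, and the part of this in the pattern was not tested.

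Cells with the rarer factors also held some of the commoner ones. All 7 cells with Sox9 also held Rax and Lhx2, and all 5 cells with Nr2e1 also held Lhx2, Six6 and Otx2. These partners were common over all cells: Rax was in 9 N1-CKO and 8 WT cells, and Lhx2 in 5 N1-CKO and 12 WT cells. Six6 was in 11 N1-CKO and 8 WT cells, and Otx2 in 11 N1-CKO and 7 WT cells. Over the 26 cells, the highest rho among the 28 pairs of factors was that of Sox9 with Nr2e1 (0.62), followed by Rax with Sox2 (0.43), and the lowest was that of Rax with Pax6 (-0.34). Within groups, Rax with Sox2 had 0.76 in N1-CKO cells and 0.15 in WT cells, and Rax with Pax6 had -0.51 in N1-CKO cells and 0.10 in WT cells. Since all cells were scaled to a common array mean, these values share that scaling, and they are descriptions only. The median over the 28 pairs was -0.02, and over all 10958221 pairs of the 4682 genes detected in at least 6 cells it was 0.01, with 95% of pairs between -0.39 and 0.41. Of the 28 pairs, 3 lay beyond that range: Sox9 with Nr2e1, Rax with Sox2, and Lhx2 with Nr2e1 (0.42). Nr2e1, detected in only 5 cells, is not among the 4682 genes, so the range does not cover its pairs. It was at the floor in 6 N1-CKO cells and 1 WT cell, and Sox9 in 6 N1-CKO and 3 WT cells, which gives tied ranks.

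**Figure D3:**
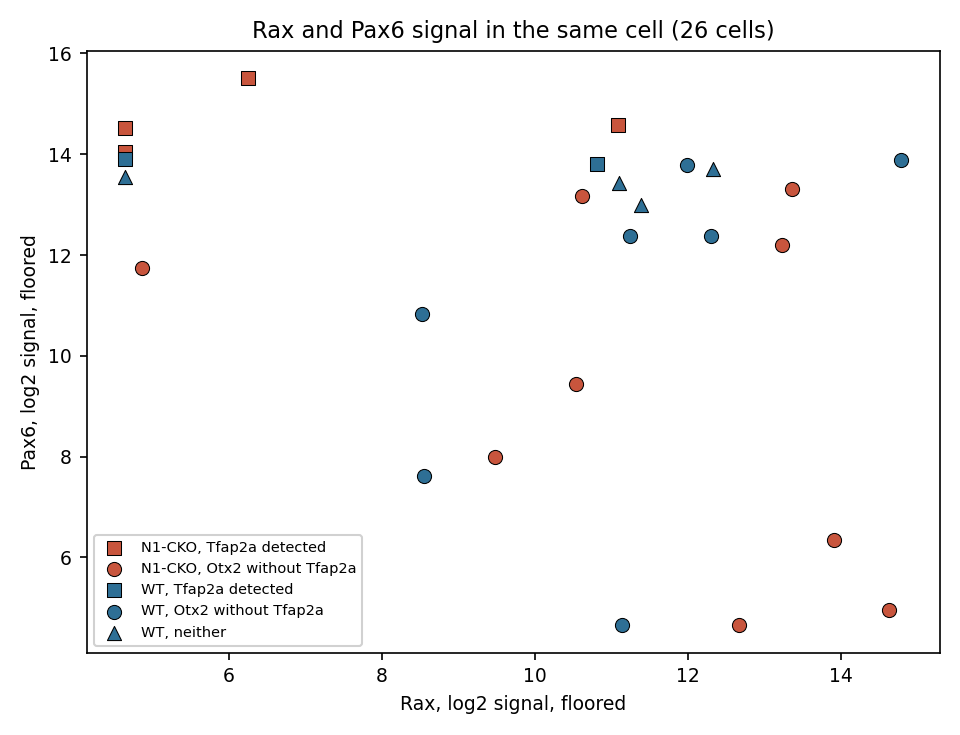
Log2 signal of Rax (x axis) against that of Pax6 (y axis) in each of the 26 cells, N1-CKO red and WT blue. Squares are cells with Tfap2a, circles cells with Otx2 and no Tfap2a, and triangles WT cells with neither. The 6 squares all lie high on the Pax6 axis, and the 3 N1-CKO circles at the lower right are cells 5, 6 and 7.

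Cells in the late cell cycle held a median of 5 factors, against 4 in the other 15 cells. By the count of 8 or more of 19 G2/M genes, 2 N1-CKO cells and 9 WT cells were in this class. Over these 11 cells Sox2, Pax6 and Lhx2 were each detected in 10, Rax in 8 and Six6 in 7. Six3 was found in 6, Sox9 in 5 and Nr2e1 in 2. Among the other 15 cells, Six6 was detected in 12, Rax and Pax6 in 9 each and Six3 in 8. Lhx2 was found there in 7, Sox2 in 6, Nr2e1 in 3 and Sox9 in 2. Each of these 19 G2/M genes had a lower mean in the N1-CKO group (median difference -3.40), where 51.5% of all 8280 genes did. The class itself is thus unequal between the groups. Sox2 followed it most closely in WT cells, being detected in 9 of 9 WT cells of the class and in 0 of the other 4. In N1-CKO cells it was found in 1 of the 2 cells of the class and in 6 of the other 11. Over the 26 cells, Sox2 had the highest rho of the factors with the number of G2/M genes (0.63), and Six6 the lowest (-0.27).

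Outside the class, Lhx2 was detected in 4 of 11 N1-CKO cells and 3 of 4 WT cells, and within it in 1 of 2 N1-CKO cells and 9 of 9 WT cells. The share was lower in N1-CKO cells on both sides, with few cells in each. Within the class this rests on N1-CKO cell 2 alone, whose Lhx2 signal of 1780 lay just under its threshold of 2112. A slightly lower limit would leave no difference there. Among cells with Mki67, an antigen of dividing cells, Lhx2 was found in 3 of 4 N1-CKO cells and 11 of 11 WT cells. Lhx2 signal moved with Ccnd1, the D-type cyclin of retinal progenitors (rho = 0.65 over 26 cells), and with Mki67 (0.56).

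Cells with photoreceptor genes mostly held Rax, which was found in 9 of 13 N1-CKO and 8 of 13 WT cells over all. The class of 5 or more of 14 photoreceptor genes held 9 cells, 5 N1-CKO (cells 1, 2, 3, 7 and 10) and 4 WT (cells 9, 10, 12 and 13). Of the 8 photoreceptor genes detected in at least 2 cells, 5 had the higher mean in the N1-CKO group and 3 the lower (median difference 1.37). That is near the share over all genes, of which 4015 of 8280 were higher. Rax was detected in 5 of 5 N1-CKO and 3 of 4 WT cells of the class, and Lhx2 in 2 of 5 N1-CKO and 4 of 4 WT cells. In N1-CKO cells 2 and 3 Rax lay just above the threshold, at 2165 against 2112 and 1576 against 1536. Over the 9 cells, Six6 was found in 6, Sox2 and Pax6 in 5 each, Six3 and Nr2e1 in 4 each and Sox9 in 3. At least 4 factors were held by 4 of the 5 N1-CKO cells and 3 of the 4 WT cells, or 77.78% of the class, a share that was 20% with detection at the 95th percentile. Leaving out the 4 cells with G2/M genes, Rax was found in all 5 that remained, Lhx2 and Six6 in 3, Sox2, Pax6 and Nr2e1 in 2, and Sox9 and Six3 in 1.

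Otx2 by itself marked 11 N1-CKO and 7 WT cells. Rax was detected in 9 of the 11 N1-CKO cells and 5 of the 7 WT cells, and Lhx2 in 5 of the 11 N1-CKO cells and all 7 WT cells. Pax6 was found in 6 of the 11 N1-CKO cells and 5 of the 7 WT cells with Otx2, and in all 8 cells without Otx2. Nrl, the rod-fate factor, marked 9 cells of each group, and all 9 WT cells with Nrl held Lhx2, against 5 of the 9 N1-CKO cells. Among cells with Crx, Lhx2 was in 5 of 10 N1-CKO and 6 of 6 WT cells. For each of these 3 markers, then, WT cells held Lhx2 without exception and about 1 in 2 N1-CKO cells did. Over all cells Lhx2 was found in 5 of 13 N1-CKO and 12 of 13 WT cells. The same 5 N1-CKO cells held it under each marker. The only WT cell without Lhx2, cell 7, had none of the 3 markers, so the markers add little to the overall counts.

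In cells with neuronal genes, as over all 26 cells, Pax6 and Six6 were the factors found most often. The class of 5 or more of 15 neuronal genes, such as Tubb3, Syt1 and Snap25, held 9 N1-CKO and 6 WT cells. Of the 13 neuronal genes detected in at least 2 cells, 10 had the higher mean in the N1-CKO group (median difference 1.94), where 4015 of all 8280 genes did. Pax6 was detected in 7 of the 9 N1-CKO and 5 of the 6 WT cells, Six6 in 8 N1-CKO and 4 WT cells, and Six3 in 6 N1-CKO and 4 WT cells. Lhx2 was detected in 3 of the 9 N1-CKO and 5 of the 6 WT cells, Sox2 in 5 N1-CKO and 4 WT cells, and Rax in 5 N1-CKO and 2 WT cells. Without the cells that also held G2/M genes, 7 N1-CKO and 2 WT cells remained. Over those 9 cells the factors ranked as Six6 in 8, Pax6 in 7, Six3 in 6, Sox2 in 4, Rax and Lhx2 in 3, Nr2e1 in 1 and Sox9 in 0. Neighbours in this order differ by 1 or 2 cells, which is within counting error. Sox9 in 0 of 9 cells allows a share of up to 33.3% (3 counts of the total, counting error only).

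Cells with Tfap2a held Pax6 and mostly lacked Rax, a grouping made after its values were seen. Tfap2a was detected in N1-CKO cells 2, 11, 12 and 13 and in WT cells 1 and 7. They are the same 6 cells that held at least 3 of 13 amacrine and horizontal cell genes. Of the 8 genes of that list detected in at least 2 cells, 7 had the higher mean in the N1-CKO group (median difference 0.64). Over all genes, 4015 of 8280 did. That list holds Tfap2a itself and Tfap2b, both found in all 6 cells, so this overlap is partly built in. All 6 held Pax6, 5 held Six3 and 5 held Six6. Lhx2 and Sox2 were each found in 2, Rax in 1, and Sox9 and Nr2e1 in none. The 4 N1-CKO cells are the 4 with the brightest Pax6 of the data, and the WT cells had 14298 and 15333, near the top of their group. Over the 26 cells the number of amacrine and horizontal cell genes had a rho of 0.58 with Pax6 and -0.57 with Rax.

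**Figure D4:**
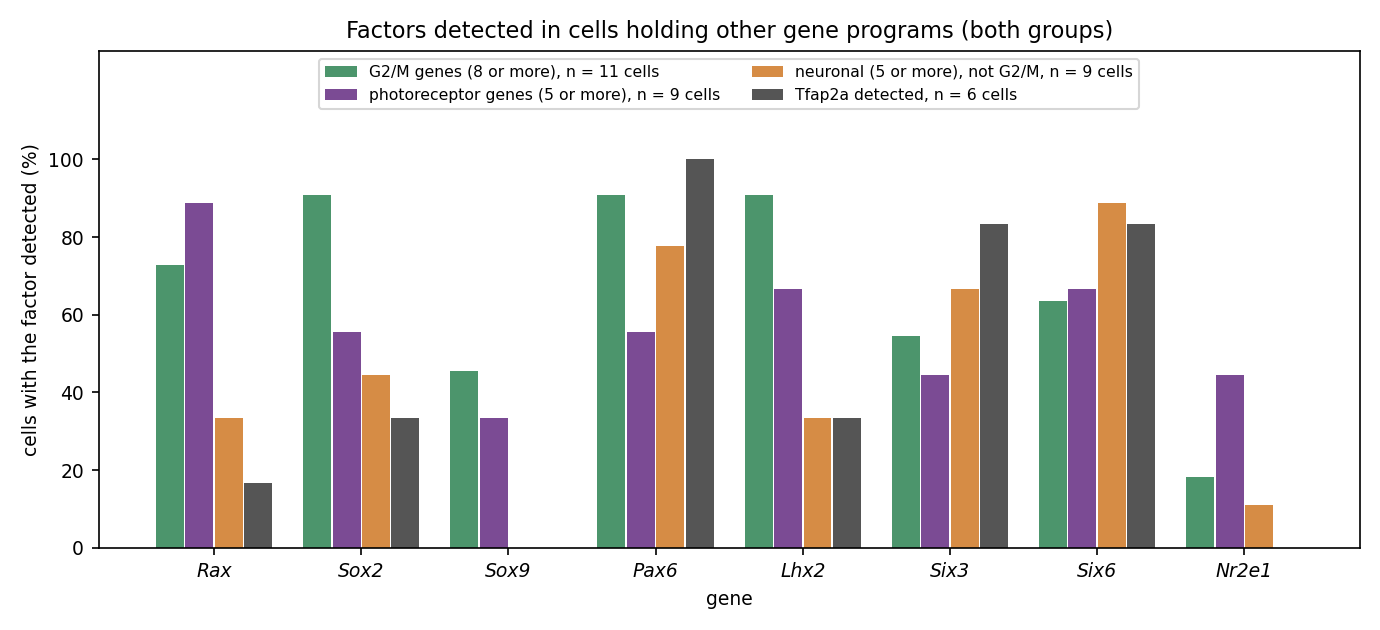
Share of cells with each factor detected, over both groups, in cells with G2/M genes (n = 11), cells with photoreceptor genes (n = 9), cells with neuronal but not G2/M genes (n = 9) and cells with Tfap2a (n = 6). A cell can be in more than 1 class. Rax is highest in the photoreceptor class, Sox2 and Lhx2 in the G2/M class, and Pax6 and Six3 in the Tfap2a class.

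Most other genes of the progenitor program had lower means in N1-CKO cells. The companions of the factors considered here were 21 measured genes. Of the 17 detected in at least 2 cells, 15 had the lower mean in the N1-CKO group, 14 of them by at least 1, and 2 the higher. Over all 8280 genes, 51.5% were lower, and 22.3% were lower by at least 1. Their median difference was -1.53, beside -0.69 for the 8 factors and -0.04 for all 8280 genes. The Notch effector Hes1 was detected in 1 N1-CKO and 6 WT cells (-2.96), and Hes5, another, in 6 N1-CKO and 8 WT cells (-1.97). Zfp36l1, an mRNA decay factor, was found in 4 N1-CKO and 11 WT cells (-4.10), and Ccnd1 in 10 N1-CKO and 13 WT cells (-3.10). Lhx2, at -3.88, lay between these genes.

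Car2, a carbonic anhydrase of progenitors and Müller glia, was detected in 6 N1-CKO and 11 WT cells (-2.45), Nfia, a factor of late progenitors, in 1 N1-CKO and 3 WT cells (-2.09), and Fgf15, a growth factor of progenitors, in 3 N1-CKO and 7 WT cells (-1.90). The genes with higher means were the corepressor Tle1, found in 5 N1-CKO and 1 WT cells (1.99), and the homeobox factor Meis1, found in 8 N1-CKO and 5 WT cells (1.31). The median difference of the companions was -0.19 on the high 18S arrays and -2.74 on the low ones. Meis1 had 5.22 on the high set and -1.12 on the low one.

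Likeness of pattern was ranked by Spearman rho over the 26 cells among the 4682 genes. The genes most like Lhx2 were Plagl1 (0.76), Sae1 (0.72) and Nudt4 (0.72), and those most like Sox2 were Ect2 (0.70), Cherp (0.70) and Top2a (0.69). Pax6 was most like Macroh2a2 (0.77), Elof1 (0.75) and Zmiz2 (0.72), and Rax most like Rps28 (0.67), Shisa4 (0.66) and Jund (0.65). Sox9 was most like Ttyh1 (0.77), Mt1 (0.73) and Arf6 (0.72), and Nr2e1 most like Eif2b5 (0.69), Nup62 (0.66) and Cdca8 (0.64). No gene was in the top 3 of more than 1 factor. For Six3 they were Exoc5 (0.72), B4galt2 (0.66) and Armcx2 (0.62), and for Six6 Prnp (0.71), Tgs1 (0.66) and Reps1 (0.66).

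The mean signal of the 8 factors in a cell was most like Arf6 (0.84), Cdk1 (0.81), Mt1 (0.81), Fos (0.79) and Dkk3 (0.78). Cdk1 is the kinase that drives entry into mitosis, and Dkk3 is a secreted protein of progenitors and Müller glia. The genes running opposite to it were Sox4 (-0.66), Dcc (-0.65), Hnrnph1 (-0.61), Ttc3 (-0.60) and Samd14 (-0.60). Sox4 is a transcription factor of newly made neurons and Dcc the netrin receptor of growing axons. These are the ends of a long ranking and are given as a description.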

How the data were processed

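The table used holds linear intensity values as the authors deposited them, 1 column per cell, and the submitters' processing notes name MAS5 as the tool behind them. The trimmed mean signal, with 2% cut from each end, was 500 on every array, so total RNA per cell cannot be compared. No MAS5 detection calls were used, and its version is not stated in these sources. Per the labels' protocols, cDNA was primed with oligo dT and amplified by PCR, which favours 3′ ends.

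Probe sets were named through the platform annotation, with symbols brought up to date by Entrez number in a RefSeq gene table (GRCm38.p6). Probe sets with several genes were left out. A gene with several probe sets was represented by its brightest one on average across the 26 cells. Signals below the pooled median (25.02, log2 of 4.65) were raised to it. Detection meant the 90th percentile of the array or higher, over probe sets that are not controls. A class of cells needed 5 photoreceptor, 5 neuronal or 8 G2/M genes of its list.

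Groups come from the labels, and no test was made because each group is 1 sample. Intervals are exact Clopper-Pearson 95% intervals, cover counting error only, and the number of arrays limits the precision. The factors, the gene lists and the settings were chosen with earlier results of these data known. All 8 factors were named, as were the 8 companions with the largest differences (Meis1 was added after its value was seen), up to 4 genes of each other list by cells detected, and the 3 genes most like each factor. Tfap2a, Neurod1, Notch1, Gfap and Mitf stand outside that rule and were named as markers or checks. The companion list holds 21 measured genes. Correlations between cells across probe sets ran from 0.19 to 0.56 on the log2 scale, and no profile occurred more than once.

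Alternatives covered normalization, floor, detection limit, probe set choice, class size, 18S set, Gapdh ratio and each cell left out. Python 3.11.15, numpy 2.4.6, pandas 2.3.3 and scipy 1.17.1 were used, with matplotlib 3.10.9 for plots. The scripts were tested on simulated data.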

Additional observations from a re-analysis of the deposited data

How the results depend on the processing

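The comparison covered 36 results and 16 alternatives beside leaving out cells. Of 238 values, 208 stayed within the spread between cells or within 1.5 times the reported count, and 27 moved further. The other 3 changed sign, which was counted only for factors with a reported difference of at least 1 in size. These were Sox9 (0.57) and Pax6 (1.77) on the high 18S arrays and Six3 (-0.41) on the low ones. Smaller differences changed sign as well, and these changes stand among the 208. Six6 (0.65 as reported) had -0.25 on the high 18S arrays. Nr2e1 (-0.04 as reported) had 0.31 on the low ones and 0.33 once cells whose Gapdh ratio exceeded 3 were left out. Nr2e1 also had 0.52 with the floor at the 75th percentile and 0.35 with the mean of all its probe sets. It stayed negative under the other alternatives. The companions' median difference was -0.19 on the high and -2.74 on the low 18S arrays, and the cause was not tested. Detection at the 95th percentile, which counts fewer probe sets by construction, left 27.88% of factor and cell pairs detected in N1-CKO cells (50.96% as reported) and 30.77% in WT cells (58.65%), with medians of 2 factors per N1-CKO cell and 3 per WT cell. The share of cells with at least 4 factors was then 20% with photoreceptor genes, 0% with neuronal genes and 28.57% with G2/M genes, against 77.78%, 66.67% and 90.91% as reported. Leaving out 1 cell at a time moved the number of factors with the lower N1-CKO mean between 4 and 6. It moved Pax6 between -1.73 and -0.58, Sox2 between -2.30 and -1.39, Sox9 between -1.90 and -1.18, Six3 between 0.88 and 1.48, Six6 between 0.14 and 1.21 and Nr2e1 between -0.49 and 0.23. As a difference of medians, Sox9 had -4.68 and Lhx2 -5.26. No paired analysis was possible because the number in a cell's title only names it, the labels pair no cells, and no test was made. Sox9 and Nr2e1 were detected in few cells, which limits both.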
